A study of Homo sapiens with 12 samples.

Results

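The proteasome subunit genes were the 41 rows, of 25370 genes in the count table, whose symbol begins with PSM followed by A, B, C, D, F or G and a number, without the inducible core subunits PSMB8, PSMB9 and PSMB10. They were followed across 12 RNA-seq libraries of T47D, an established estrogen receptor-positive breast carcinoma line. The libraries formed 4 groups of 3 replicates (a, b and c): vehicle, 10 nM anastrozole, 0.1 nM E2 (estradiol), and 10 nM anastrozole plus 0.1 nM E2. Anastrozole is an aromatase inhibitor, which blocks the conversion of androgens into estrogens. All groups, vehicle included, had been kept for 48 h in medium with 5% charcoal-stripped serum and then for 24 h without serum. The labels give 12 h of treatment and the study's methods 24 h, so the time is uncertain. The cells were 1 line, and the sources do not clearly say that the replicates of these libraries came from separate cultures, so p-values here measure the spread between these libraries, which may be technical.

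The proteasome degrades proteins that carry ubiquitin. Its core particle is a barrel of stacked rings, in which alpha subunits form the gated outer rings and beta subunits the inner rings with the proteolytic sites. A regulatory particle caps the barrel: its base holds a ring of ATPases that unfold substrates and push them inward, together with non-ATPase scaffold and ubiquitin-receptor subunits, and its lid removes the ubiquitin chain. Dedicated chaperones help both particles assemble. The subunits are needed in fixed proportions, and their genes are known to be induced together when proteasome activity falls short, largely through the transcription factor NFE2L1. By these roles the 41 genes were 8 core alpha, 8 core beta, 6 ATPase, 3 non-ATPase base and 8 lid genes, 7 assembly chaperones and the regulator PSMF1.

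The libraries held 9914253 to 17009776 counts on genes. The luminal markers were high in every library (KRT19 at 2539 to 3148 scaled counts, or CPM, and ESR1 at 163 to 188). However, 5 of 9 fell with E2 by edgeR's test (KRT8, KRT19, CDH1, ESR1 and FOXA1, with a median of -0.08 over the 9). DESeq2 and limma-voom called 5 and 4 of the 9. Over all genes 5.95% fell with E2, as did 1214 of 11037 genes averaging at least 3 on the log2 CPM scale. PGR was at -0.13 with anastrozole (called by edgeR, and by neither DESeq2 nor limma-voom). In anastrozole against E2, PGR was at -0.19 (adjusted p = 7.3e-06 by edgeR), where DESeq2 and limma-voom also called 1 of the 9. Of 10 markers of other cell types, 8 stayed below 1 CPM, and COL1A1, a collagen gene of fibroblasts, was at 80 to 99.9 CPM over all libraries. From E2 to the combination COL1A1 was at 0.17 (adjusted p = 0.0017, called by edgeR and DESeq2 but not limma-voom) and KRT19 at 0.11 (adjusted p = 0.0017). COL1A1 also passed in the interaction of anastrozole and E2 (0.25, adjusted p = 0.0039), as did KRT8 (0.13) and KRT19 (0.22). In the interaction 10.9% of all genes passed, and 19.9% of genes of at least 3 log2 CPM. CD68, at 3.12 to 7.14 CPM, passed by edgeR's test with anastrozole (0.71, adjusted p = 0.0051) and with E2 (0.55, adjusted p = 0.015), where DESeq2 and limma-voom called 0 of the 10, and in the interaction (-0.76, adjusted p = 0.015). Its counts are uncertain, since 94.9% of its exon bases are shared with another annotated gene on the same strand. The summed CPM of these 10 markers was 95.4 to 101 in vehicle, 92.8 to 99.8 with anastrozole, 86.1 to 96.6 with E2 and 100 to 107 with the combination, and the part of these markers in the results was not tested. Anastrozole replicate c stood apart. It differed most from another replicate of its group (a chi-square divided by its degrees of freedom of 4.83 against replicate a, and 1.28 to 2.65 in the other replicate pairs), and across 10859 genes its counts, relative to the mean of all libraries, rose with the GC content of the gene (Spearman rho 0.27) where those of anastrozole a and b fell (-0.62 and -0.38). Results for anastrozole are therefore also given without it.

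Nearly all members were expressed. PSMA8, an alpha subunit of the testis, had no count in any library, which allows at most 0.177 to 0.303 CPM (3 counts) by library, for counting error only. PSMB11, the beta subunit of the thymic cortex, had 1 count in E2 b and 1 in anastrozole plus E2 a and none elsewhere, so no fold change is given for it. The other 39 genes averaged at least 3 on the log2 CPM scale, and they are the expressed members below. In the vehicle group, on the scale of CPM per kb of the annotated main transcript, PSMB4 was highest at 259 ± 10.2 (SD, n = 3), followed by PSMA6 at 201 ± 4.35, PSMD2 at 185 ± 2.04 and PSMB7 at 177 ± 7.29. The levels of PSMD2 and PSMB7 differed by about the SD of PSMB7. The marker genes of the complex were at 164 ± 9.56 for PSMA7, a core alpha subunit, and 99.6 ± 3.7 for PSMC3, an ATPase.

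**Figure D1:**
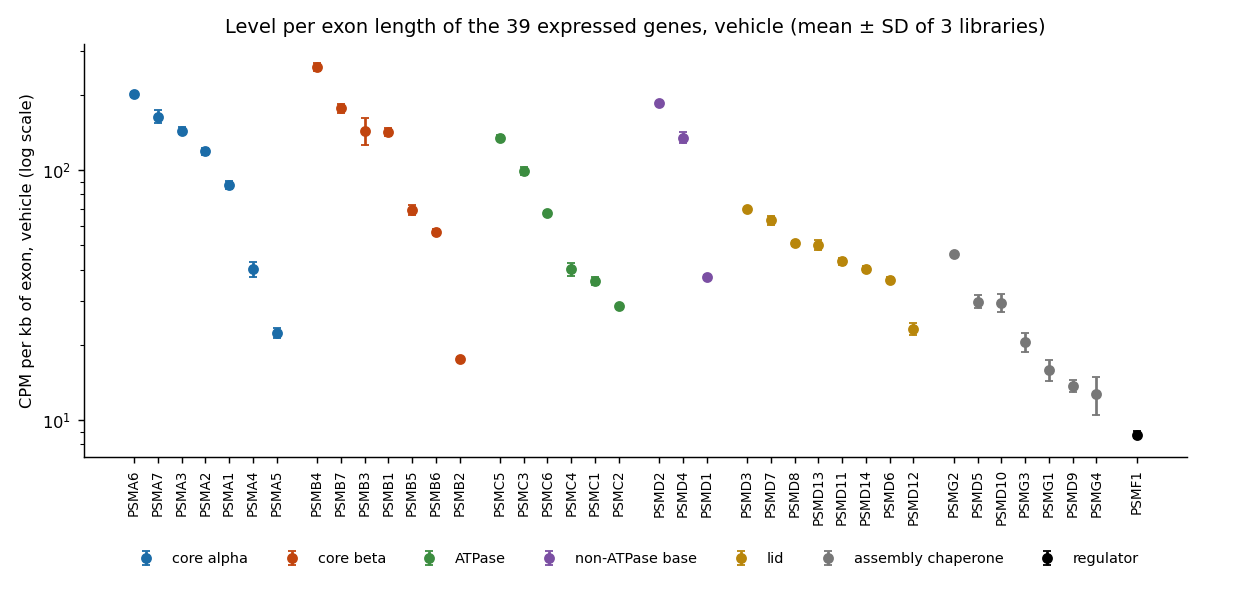
Level of each expressed subunit gene in vehicle libraries, as CPM per kb of exon on a log axis, mean with SD of 3 libraries, ordered within each class. Core genes span 17.6 (PSMB2) to 259 (PSMB4), and lid genes lie closer together, between 23.2 (PSMD12) and 70.1 (PSMD3).

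Subunits that sit in the complex in equal numbers did not have equal RNA levels per kb. Core alpha genes ran from 22.3 ± 1.06 (PSMA5) to 201 ± 4.35 (PSMA6), and core beta genes from 17.6 ± 0.365 (PSMB2) to 259 ± 10.2 (PSMB4). The 3 beta genes with proteolytic sites were at 69.5 ± 3.01 for PSMB5, 56.6 ± 1.34 for PSMB6 and 177 ± 7.29 for PSMB7. ATPase genes ran from 28.7 ± 0.11 (PSMC2) to 135 ± 3.46 (PSMC5), and lid genes from 23.2 ± 1.24 (PSMD12) to 70.1 ± 0.205 (PSMD3). The assembly chaperones had a median of 20.5, lower than that of the lid (46.7). They ran from 12.7 ± 2.22 (PSMG4) to 46.4 ± 0.219 (PSMG2), a range that overlaps those of the classes above. PSMF1, an inhibitor of the core, was lowest per kb at 8.76 ± 0.259, over an annotated main transcript of 8154 exon bases. In CPM it was at 71.5 ± 2.11, and PSMG4 was lowest at 9.96 ± 1.74. The levels per kb depend on the transcript assumed: the annotated main transcripts of PSMA4, PSMA5, PSMB2, PSMC1 and PSMD12 have 3815 to 4426 exon bases, against 762 to 1434 for the other expressed core genes. For PSMA2, PSMA6 and PSMA1, 94.6%, 81.4% and 67% of exon bases are shared with another annotated gene on the same strand, and 83.2% of PSMC1 lies opposite another gene, so their counts are uncertain.

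Across all 12 libraries the expressed members stayed within narrow limits. The highest CPM of a gene divided by its lowest had a median of 1.16 over the 39 members, against 1.24 over the 11037 genes of at least 3 log2 CPM. The ratio ran from 1.08 for PSMF1 to 1.48 for PSMG4, a chaperone of the alpha ring, and it stayed under 1.5 in 39 of 39 members and in 93.8% of all such genes. PSMG4 was also the expressed member of lowest CPM, at 8.08 to 12. The members were not matched to genes of like level, so the narrow limits cannot be read as a trait of the members. The members' summed CPM was 4793, 4583 and 4631 in vehicle a, b and c, 4567, 4483 and 4307 with anastrozole, 4511, 4538 and 4567 with E2, and 4604, 4430 and 4401 with the combination. All anastrozole and E2 libraries were below all vehicle libraries, while anastrozole plus E2 a lay between vehicle b and c. The mean sums were 4669 ± 110 (SD, n = 3) in vehicle, and 95.4%, 97.2% and 95.9% of that with anastrozole, E2 and the combination. In bulk libraries scaled to their totals, fewer cells with a transcript and less of it per cell cannot be told apart.

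**Figure D2:**
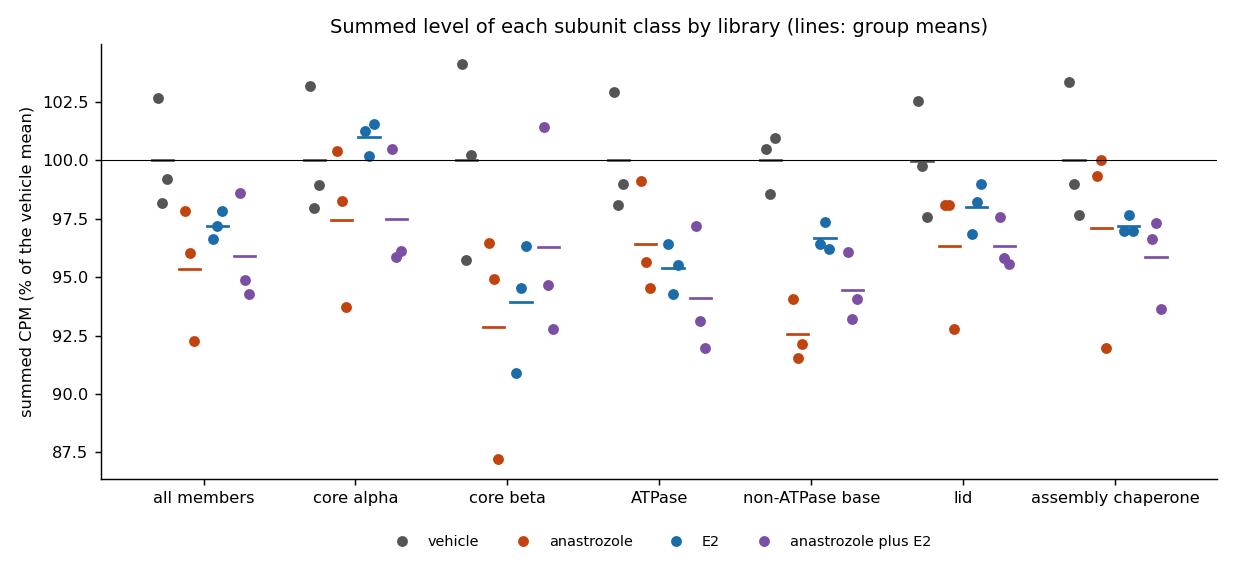
Summed CPM of each subunit class in each library, as a percentage of the vehicle mean of that class, with lines at the group means and an axis that does not start at 0. Core beta and non-ATPase base sums with anastrozole lie at 92.8% and 92.6% of vehicle, while the core alpha sum with E2 lies at 101%.

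Anastrozole against vehicle asked what the inhibitor did without added estrogen. PSMD2, the large scaffold of the base that docks ubiquitin shuttle proteins, was the 1 member that passed the threshold. PSMD2 (chr3:184016986-184026838 in hg19) was at 534, 537 and 546 CPM in vehicle and at 494, 479 and 494 CPM with anastrozole. Every treated library was lower than every vehicle library, and the log2 fold change was -0.14 (SE 0.04, adjusted p = 0.031, from edgeR's quasi-likelihood fit, Benjamini-Hochberg adjusted over 21132 genes). Over all genes tested, 3.67% passed in either direction and 2.27% fell. Among genes of at least 3 log2 CPM 6.51% passed, so 1 of 39 expressed members gives no excess over the latter share. The call was lost without vehicle a, b or c (adjusted p = 0.088, 0.075 and 0.28) and without anastrozole a or b (0.072 and 0.27).

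Over all 39 expressed members, PSMD2 included, the estimates lay mostly just below zero. Their median log2 fold change was -0.06, against 0.00 over all genes tested, and 32 of 39 were below zero. The 95% interval lay within 1.2-fold in either direction for 34 of the 39. In 10 of 39 members all 3 anastrozole libraries were below all vehicle libraries, and none had all 3 above. The same complete separation downward held for 13.5% of all genes of at least 3 log2 CPM. PSMA7 (chr20:60711789-60718496) was at 166, 148 and 161 CPM in vehicle and 139, 141 and 147 CPM with anastrozole, which do not overlap, with a log2 fold change of -0.15 (SE 0.05, adjusted p = 0.06). PSMC3 (chr11:47440320-47448024) was at 160, 149 and 152 CPM against 137, 139 and 143 CPM, likewise without overlap, with -0.14 (SE 0.05, adjusted p = 0.1). Without anastrozole c, PSMA7 (-0.17), PSMC3 (-0.15), PSMD2 (-0.15) and PSMD3 passed the threshold as lower, and the median over all members was -0.03. Without vehicle a, the vehicle library with the highest sum, that median was also -0.03 and no member passed. No share of all genes is given for these fits, so their calls cannot be read as an excess.

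Core beta genes had the lowest class median in this comparison, while the lowest single estimates were those of the chaperones PSMG4 and PSMG3 (-0.19). With the GC trend of each library removed, the chaperone median was lowest, at -0.10 against -0.09 for core beta. Without that removal the core beta median log2 fold change was -0.12, and 7 of 7 were below zero. They ran from -0.18 for PSMB5, the subunit with the chymotrypsin-like site (SE 0.06, adjusted p = 0.057), to -0.05 for PSMB1. PSMB5 was at 75.1, 69 and 73.4 CPM in vehicle and 66, 66.2 and 59.4 CPM with anastrozole. PSMB6, which carries the caspase-like site, was at 46.1, 45.9 and 47.9 CPM against 40.7, 43.5 and 40.2 CPM (log2 fold change -0.17, SE 0.07, adjusted p = 0.16). Both genes were lower in every treated library. Without anastrozole c the core beta median was -0.07 and the lid median -0.01. Core alpha genes had a median of -0.01, with 6 of 7 between -0.15 (PSMA7) and zero, and PSMA1 at 0.02. The medians were -0.06 for the ATPases (4 of 6 below zero), -0.06 for the non-ATPase base genes (3 of 3), -0.05 for the lid (5 of 8) and -0.04 for the chaperones (6 of 7). The lowest estimate was that of PSMG4 at -0.21 (95% interval -0.47 to 0.04), and the highest that of PSMD10, a chaperone of the ATPase ring, at 0.09.

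**Figure D3:**
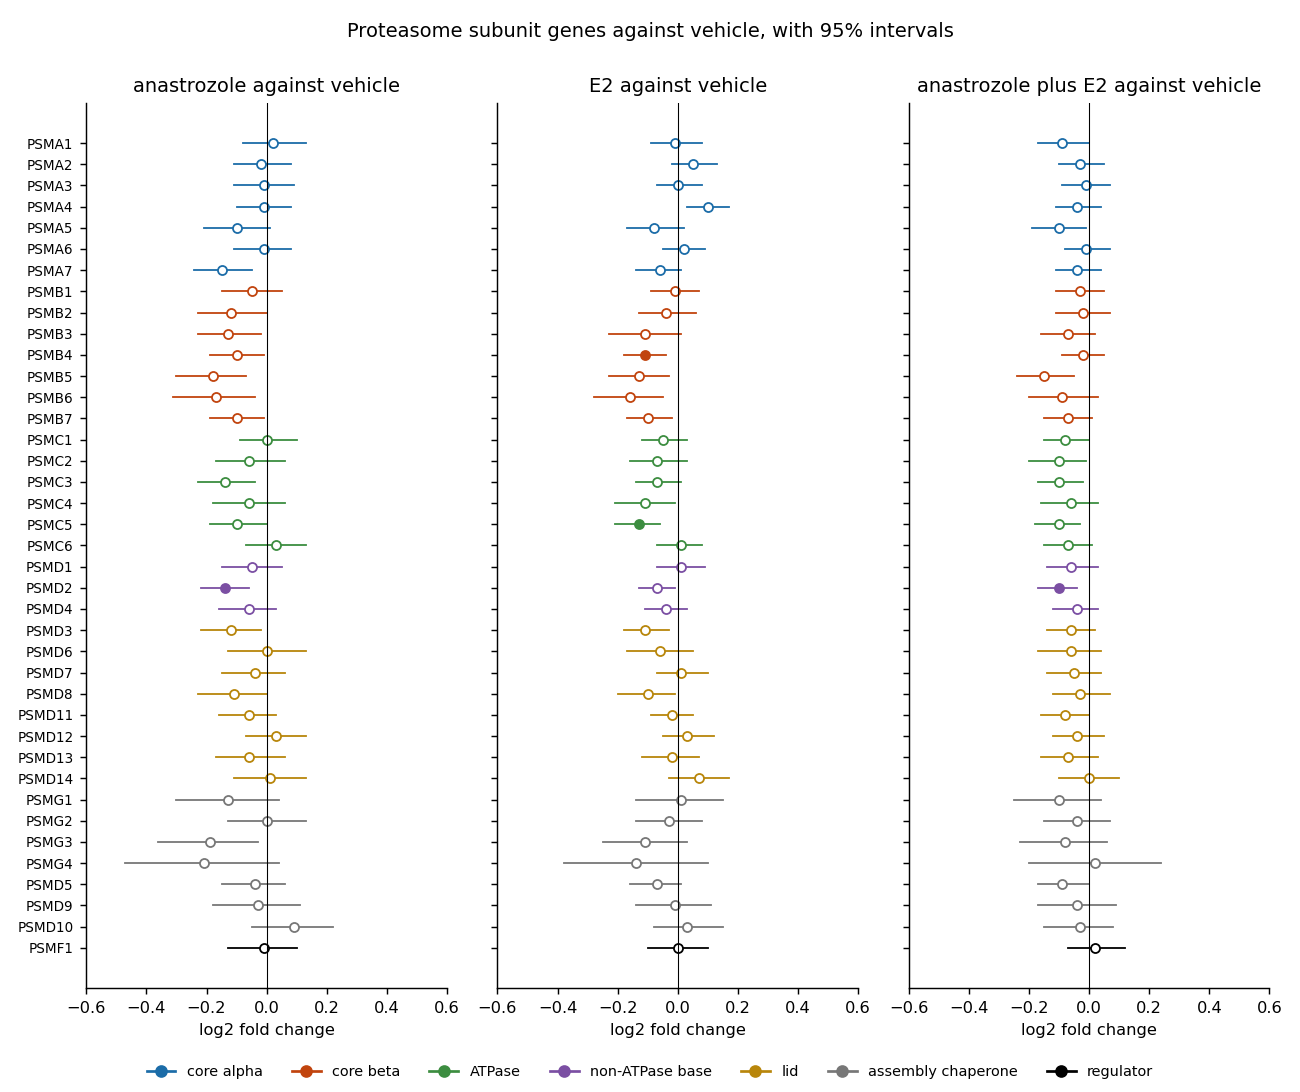
Log2 fold change of the 39 expressed members against vehicle, with 95% intervals from the quasi-likelihood fit, for anastrozole, E2 and the combination. Filled points passed the threshold: PSMD2 with anastrozole, PSMB4 and PSMC5 with E2, and PSMD2 with the combination.

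E2 against vehicle asked what the hormone did. Of 39 expressed members 2 fell, and none rose, where 12% of all genes tested passed in either direction, 5.95% fell, and 21.5% of genes of at least 3 log2 CPM passed. The members' count gives no excess over these shares. PSMC5 (chr17:61904512-61909386), an ATPase, was at 185, 176 and 177 CPM in vehicle and 161, 164 and 166 CPM with E2. All E2 libraries were lower, with a log2 fold change of -0.13 (SE 0.04, adjusted p = 0.0054). Its exons overlap those of FTSJ3 on the opposite strand over 6.31% of their bases. PSMB4 (chr1:151372036-151374413), a core beta subunit without a proteolytic site, was at 243, 227 and 243 CPM against 214, 220 and 227 CPM, and vehicle b and E2 c met at 227. Its log2 fold change was -0.11 (SE 0.04, adjusted p = 0.021). PSMC5 passed in every alternative tried except without vehicle a (adjusted p = 0.05), whereas PSMB4 was lost without vehicle a (0.1), vehicle c (0.19), E2 a (0.16) or E2 b (0.09), and in 6 of the 9 other settings (the DESeq2 test, limma-voom, all 12 libraries, the replicate block, and the GC offset with and without the block).

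Over the 39 expressed members the median with E2 was -0.04, with 28 below zero, and 37 intervals lay within 1.2-fold. In 7 of 39 members all E2 libraries were below all vehicle libraries, where 19.4% of all genes of at least 3 log2 CPM were. Core beta genes again had the lowest class median at -0.11 (7 of 7 below zero), with PSMB6 at -0.16 (SE 0.06, adjusted p = 0.053) and PSMB5 at -0.13 (SE 0.05, adjusted p = 0.067). The ATPase median was -0.07 (5 of 6 below zero), the lid median -0.02 (5 of 8) and the core alpha median 0.00 (3 of 7). PSMA4, an alpha subunit, had the highest estimate at 0.10 (SE 0.04, adjusted p = 0.056). PSMD14, the lid enzyme that cuts off ubiquitin chains, was at 0.07 (SE 0.05, adjusted p = 0.45). Without vehicle a the median over all members was -0.02 and the lid median 0.00, and the 1 member that passed was PSMA4. Without vehicle b 6 members passed (PSMA4, PSMA7, PSMB4, PSMB5, PSMB7 and PSMC5), and without E2 c 4 did (PSMB3, PSMB4, PSMB6 and PSMC5). The shares of all genes passing in these fits are not given, so these counts cannot be read as an excess. The comparisons against vehicle share the 3 vehicle libraries, so a common sign is not independent.

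The combination against vehicle again left PSMD2 as the 1 member past the threshold. It was at 502, 500 and 506 CPM, below all vehicle libraries (534 to 546), with a log2 fold change of -0.10 (SE 0.03, adjusted p = 0.048). Over all genes tested 5.04% passed and 2.33% fell, and 8.37% of genes of at least 3 log2 CPM passed. The call did not survive leaving out any of the 6 libraries: adjusted p was 0.069, 0.072 and 0.29 without vehicle a, b and c, and 0.063, 0.23 and 0.17 without anastrozole plus E2 a, b and c. The median log2 fold change of the members was -0.06, with 36 of 39 below zero, and the 95% interval of all 39 lay within 1.2-fold. In 9 of 39 all combination libraries were below all vehicle libraries, against 13% of genes of at least 3 log2 CPM. Here the classes lay close together, with medians of -0.04 for core alpha (7 of 7 below zero), -0.07 for core beta (7 of 7), -0.09 for the ATPases (6 of 6), -0.06 for the non-ATPase base (3 of 3), -0.06 for the lid (7 of 8) and -0.04 for the chaperones (6 of 7). PSMB5 had the lowest estimate at -0.15 (SE 0.05, adjusted p = 0.061), and PSMF1 was at 0.02. Without vehicle a the median over all members was -0.03 and that of core beta -0.01, and without anastrozole plus E2 c that of core beta was -0.02.

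Promoters are shown for the marker PSMC3 and for every member that passed in any comparison and had a window, which left out PSMA7: PSMD2, PSMC5 and PSMB4 passed against vehicle, PSMA4 for the combination against E2, and PSMD3 in the interaction of anastrozole and E2. The windows run from 250 bases before to 50 after the gene start in RefSeq (GRCh38.p14), 5′ to 3′ on the gene's strand: chr11:47426390-47426689 on the minus strand for PSMC3, and on the plus strand chr15:78540155-78540454 for PSMA4, chr1:151399323-151399622 for PSMB4, chr17:63827181-63827480 for PSMC5, chr3:184298991-184299290 for PSMD2 and chr17:39980557-39980856 for PSMD3. Capitals mark the letters TGACNNNGC, the core of the antioxidant response element bound by NFE2L1 and NFE2L2 with small MAF proteins, and CCAAT, bound by NF-Y, on either strand.
PSMA4: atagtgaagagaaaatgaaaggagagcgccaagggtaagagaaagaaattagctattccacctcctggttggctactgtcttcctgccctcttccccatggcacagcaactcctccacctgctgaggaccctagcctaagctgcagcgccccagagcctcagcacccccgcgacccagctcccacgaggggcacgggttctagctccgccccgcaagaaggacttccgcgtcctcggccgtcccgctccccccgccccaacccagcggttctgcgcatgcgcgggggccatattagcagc
PSMB4: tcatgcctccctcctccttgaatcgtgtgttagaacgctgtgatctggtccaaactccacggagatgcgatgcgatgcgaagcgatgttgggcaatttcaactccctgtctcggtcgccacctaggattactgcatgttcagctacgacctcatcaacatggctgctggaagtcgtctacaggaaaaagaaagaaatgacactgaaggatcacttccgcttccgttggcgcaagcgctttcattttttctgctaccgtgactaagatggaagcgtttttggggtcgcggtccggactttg
PSMC3: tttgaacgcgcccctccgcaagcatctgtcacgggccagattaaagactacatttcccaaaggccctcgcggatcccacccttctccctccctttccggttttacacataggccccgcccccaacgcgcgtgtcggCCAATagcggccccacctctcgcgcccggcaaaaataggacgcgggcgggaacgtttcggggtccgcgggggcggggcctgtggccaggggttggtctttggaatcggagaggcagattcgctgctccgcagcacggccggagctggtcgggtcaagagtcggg
PSMC5: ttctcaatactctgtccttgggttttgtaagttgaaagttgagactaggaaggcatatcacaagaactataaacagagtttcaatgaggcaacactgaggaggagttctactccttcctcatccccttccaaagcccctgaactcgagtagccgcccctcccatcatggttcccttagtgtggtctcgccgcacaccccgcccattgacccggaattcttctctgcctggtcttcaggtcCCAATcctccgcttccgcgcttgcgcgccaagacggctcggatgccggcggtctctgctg
PSMD2: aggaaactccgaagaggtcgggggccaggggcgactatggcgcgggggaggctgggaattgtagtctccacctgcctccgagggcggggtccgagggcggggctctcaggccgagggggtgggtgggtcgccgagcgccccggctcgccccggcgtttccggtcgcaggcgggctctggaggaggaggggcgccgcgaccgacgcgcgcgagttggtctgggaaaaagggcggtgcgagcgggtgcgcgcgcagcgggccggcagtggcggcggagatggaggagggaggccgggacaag
PSMD3: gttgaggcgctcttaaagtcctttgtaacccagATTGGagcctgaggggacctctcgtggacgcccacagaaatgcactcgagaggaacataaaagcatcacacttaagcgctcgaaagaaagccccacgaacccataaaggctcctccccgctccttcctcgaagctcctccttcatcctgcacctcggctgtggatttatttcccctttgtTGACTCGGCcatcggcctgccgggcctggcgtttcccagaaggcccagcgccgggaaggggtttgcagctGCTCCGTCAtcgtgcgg

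PSMC3 held a CCAAT box 114 bases before its start, and PSMC5 held CCAAT 10 bases before its start. PSMD3 held TGACNNNGC at 2 places: 37 bases before the start, and on the opposite strand from 33 bases after it, in addition to CCAAT on the opposite strand 217 bases before the start. PSMA4, PSMB4 and PSMD2 held neither. Of the 41 members 35 had a promoter window in the table (not PSMA7, PSMB1, PSMB6, PSMB7, PSMD4 or PSMG3). TGACNNNGC stood in 9 of these 35 (25.7%) and in 13.6% of all 27305 windows of this length. CCAAT stood in 17 of 35 (48.6%) and in 35.7% of all. The palindrome to which estrogen receptor binds, GGTCA and TGACC with any 3 bases between (its TGACC can open a TGACNNNGC match), stood in 0 of 35 and in 0.0659% of all windows. By class, TGACNNNGC was in 4 of 6 chaperone windows, 2 of 8 lid windows, 1 of 6 ATPase windows, 1 of 5 core beta windows, 1 of 2 non-ATPase base windows (PSMD1), 0 of 7 core alpha windows and not in that of PSMF1.

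The combination against E2 asked what anastrozole did in the presence of the hormone. PSMA4 (chr15:78832747-78844759) fell. It was at 194, 185 and 188 CPM with E2 and 176, 173 and 166 CPM with the combination, which do not overlap, with a log2 fold change of -0.14 (SE 0.03, adjusted p = 0.0031). In vehicle it was at 187, 178 and 164 CPM, a range that overlaps both. Over all genes tested 6.74% passed and 3.51% fell, and 12.5% of genes of at least 3 log2 CPM passed. The call was lost without anastrozole plus E2 c (-0.11, adjusted p = 0.07), and with the GC trend of each library removed the log2 fold change was -0.07. All combination libraries were below all E2 libraries in 6 of 39 members, against 16.7% of genes of at least 3 log2 CPM. The medians were -0.02 for all members, -0.02 for core alpha, 0.03 for core beta, -0.03 for the ATPases and -0.05 for the lid. PSMB4 was at 245, 230 and 228 CPM, above all E2 libraries, with 0.09 (SE 0.03, adjusted p = 0.083).

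**Figure D4:**
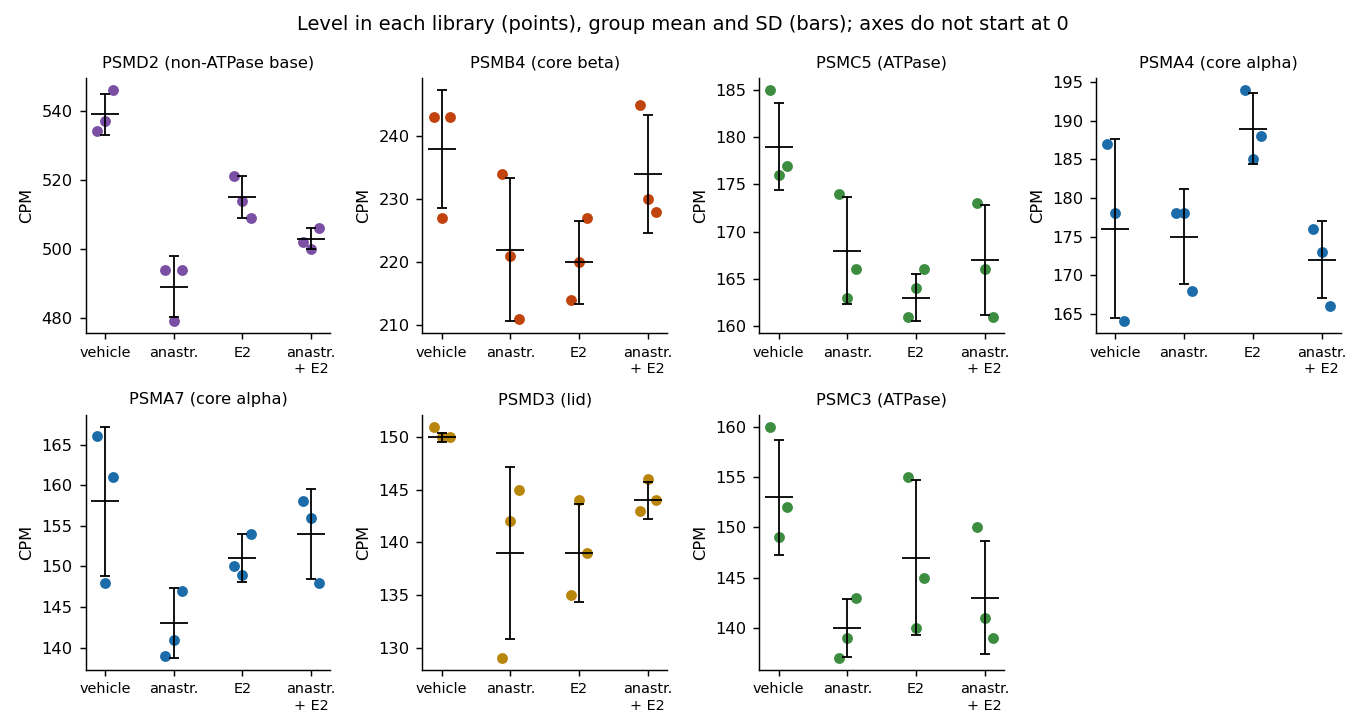
CPM of the 6 members past the threshold in any comparison and of the marker PSMC3 in each library, with the group mean and SD of 3 libraries and axes that do not start at 0. PSMD2 separates vehicle (534 to 546 CPM) from every treated library (479 to 521 CPM), while the PSMB4 vehicle libraries (227 to 243 CPM) overlap all treated groups.

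Between the treated groups no other member passed. In the combination against anastrozole, edgeR's quasi-likelihood test called 0 of 39 members, where 2.9% of all genes passed. DESeq2 and limma-voom also called 0. Of 11037 genes of at least 3 log2 CPM, 2402 had an unadjusted p under 0.05, as did 3 of the 39 members. The highest estimate was that of PSMG4 at 0.23 (SE 0.13, adjusted p = 0.44). PSMA7 was at 158, 156 and 148 CPM with the combination, above all anastrozole libraries, with 0.11 (SE 0.05, adjusted p = 0.21). Without anastrozole c, 3 members passed: PSMA7 rose, and PSMC1 and PSMC6, both ATPases, fell. The 2.9% does not belong to that fit, so the 3 cannot be read as an excess. In anastrozole against E2, 0 of 39 passed, where 1.33% of all genes did, and DESeq2 and limma-voom called 0. Of the genes of at least 3 log2 CPM, 1439 of 11037 had an unadjusted p under 0.05, as did 1 of the 39 members. The lowest estimate was that of PSMG1, a chaperone of the alpha ring, at -0.13 (SE 0.08, adjusted p = 0.73). PSMA4 was at -0.10 (SE 0.04, adjusted p = 0.31), with all anastrozole libraries below all E2 libraries.

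The interaction of anastrozole and E2 tested whether the anastrozole effect was the same with E2 as without. It was higher with E2 for 3 members: PSMB4 by 0.18 on the log2 scale (SE 0.06, adjusted p = 0.013), PSMA7 by 0.17 (SE 0.06, adjusted p = 0.037) and PSMD3, a lid subunit, by 0.17 (SE 0.06, adjusted p = 0.049). Over all genes 10.9% passed and 5.93% were raised in this sense, and among genes of at least 3 log2 CPM 19.9% passed and 10.9% were raised, so 3 of 39 members gives no excess over these shares. For PSMB4 the anastrozole estimate was -0.10 without E2 and 0.09 with it, and for PSMA7 it was -0.15 and 0.03. PSMD3 (chr17:38137060-38154212) was at 151, 150 and 150 CPM in vehicle, 129, 142 and 145 CPM after anastrozole, 135, 144 and 139 CPM after E2, and 143, 146 and 144 CPM after both. Every treated library was below the vehicle libraries, and the estimates were -0.12 with anastrozole and 0.05 for the combination against E2. The 3 calls were lost with limma-voom, and PSMB4 alone was kept with DESeq2. Without anastrozole c, 5 members passed: PSMA7, PSMB4 and PSMD3 raised, and PSMA4 and PSMC6 lowered. The share of all genes passing in that fit is not given, so this count cannot be read as an excess. None of the 3 passed without vehicle c, E2 a or anastrozole plus E2 a. Of the 12 fits without 1 library, PSMB4 passed in 9, PSMA7 in 4 and PSMD3 in 2. In the 8 other settings they passed in 5, 2 and 1. With the GC offset none of the 3 passed either, but the estimates differed: PSMB4 was at 0.14 (adjusted p = 0.092) and PSMA7 at 0.13 (adjusted p = 0.19), while PSMD3 was at 0.01. Other members passed with that offset, PSMA5 (0.24, adjusted p = 0.01) and PSMB2 (0.22, adjusted p = 0.033), where 2.34% of all genes did.

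By class, the interaction was highest for core beta genes. Their median was 0.16, with 7 of 7 above zero and PSMB6 highest at 0.25 (SE 0.09, adjusted p = 0.063), against medians of -0.01 for core alpha, 0.06 for the ATPases (0.02 without anastrozole plus E2 a) and 0.00 for the lid. Within libraries, the summed CPM of core beta genes divided by that of core alpha genes was 0.822, 0.796 and 0.826 in vehicle, 0.782, 0.787 and 0.758 with anastrozole, 0.732, 0.769 and 0.773 with E2, and 0.823, 0.805 and 0.787 with the combination. All anastrozole libraries and all E2 libraries were below all vehicle libraries, and the combination libraries overlapped vehicle. The ratio of core to regulatory particle genes showed no such separation (0.764 to 0.791 in vehicle and 0.759 to 0.81 in the treated libraries), nor did that of ATPase to lid genes (0.975 to 1.01 in vehicle and 0.952 to 1.01 in the treated libraries).

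The classes differ in GC content, and GC moved with these estimates. Median exon GC was 52% for core beta, 50.4% for the ATPases, 52.9% for the non-ATPase base, 45.7% for the lid, 42.1% for the chaperones and 41.4% for core alpha. Across the 39 members, which share their libraries, the log2 fold change had a Spearman rho with GC of -0.71 with anastrozole, -0.69 with E2, -0.10 with the combination and 0.78 for the interaction. Across 10859 genes of at least 3 log2 CPM the rho values were -0.55, -0.56, -0.03 and 0.72. The libraries' own trends with GC were 0.47, 0.06 and 0.46 in vehicle, -0.43, -0.33 and -0.51 with E2 and 0.41, 0.35 and 0.37 with the combination. Anastrozole c, whose trend of 0.27 was upward, had the lowest ratio of core beta to core alpha among the anastrozole libraries (0.758). Removing each library's trend as an offset brought the core alpha and core beta medians closer together. They were -0.07 and -0.09 with anastrozole, -0.04 and -0.09 with E2, and 0.08 and 0.12 for the interaction. Other classes did not all come closer. With anastrozole the chaperone median moved from -0.04 to -0.10 and the lid median from -0.05 to -0.04. With E2 the ATPase and lid medians were -0.07 and -0.02 without the offset and -0.08 and -0.02 with it.

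The members' median stayed below zero with the GC trend removed. With the offset it was -0.07 with anastrozole, -0.05 with E2 and -0.06 with the combination, and 37, 36 and 36 of 39 were below zero. In the 20 members of lower GC, 19, 18 and 19 were below zero, and in the 19 of higher GC, 18, 18 and 17. The calls themselves changed. With the offset, PSMA5 (-0.17, adjusted p = 0.017), PSMA7 (-0.12, adjusted p = 0.046) and PSMD2 (-0.11, adjusted p = 0.023) fell with anastrozole, where 2.96% of all genes passed. PSMA5 (-0.17, adjusted p = 0.0037), PSMC2 (-0.15, adjusted p = 0.016), PSMC5 (-0.10, adjusted p = 0.033) and PSMD5 (-0.15, adjusted p = 0.0083) fell with E2, where 7.23% passed. PSMB5 (-0.14, adjusted p = 0.046) and PSMD2 (-0.10, adjusted p = 0.026) fell with the combination, where 6.02% passed. PSMD2 with anastrozole and with the combination and PSMC5 with E2 were thus the calls against vehicle that held with and without the offset.

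**Figure D5:**
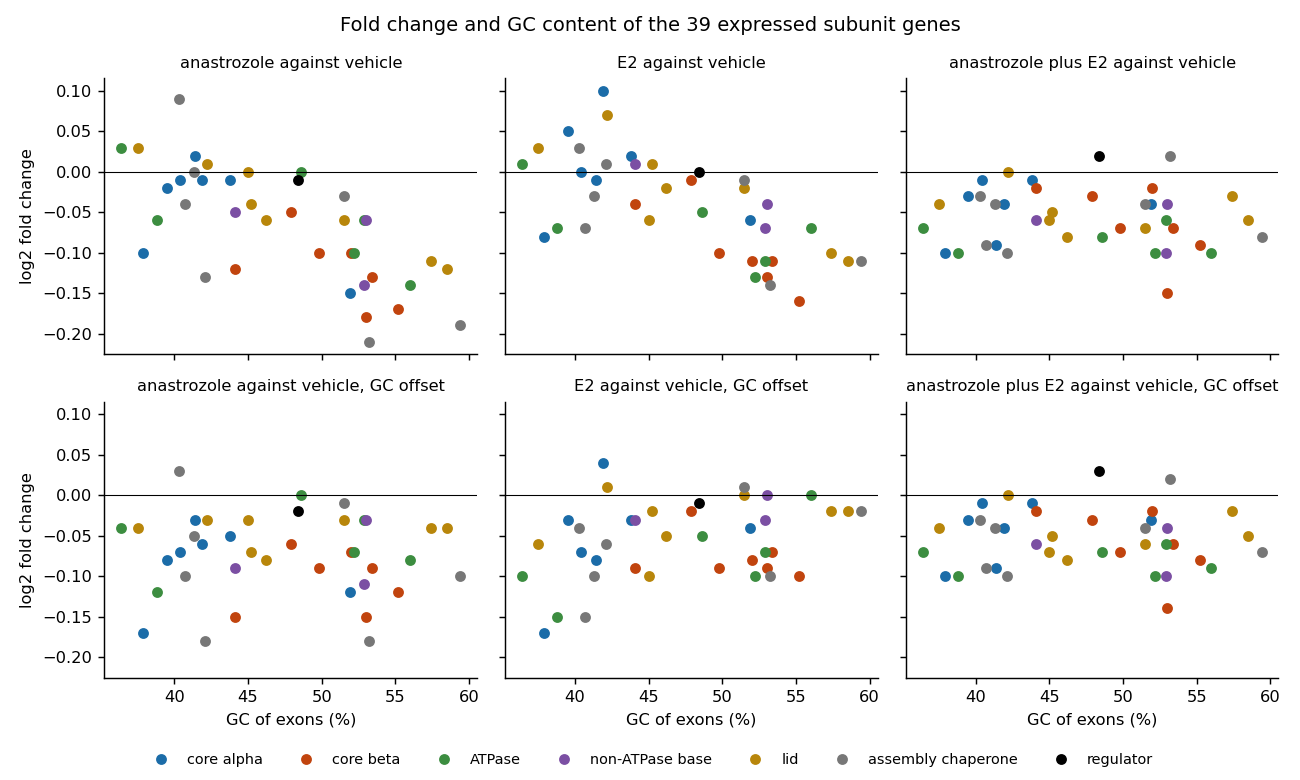
Log2 fold change of the 39 expressed members against vehicle plotted on exon GC content, by class, without (upper row) and with (lower row) an offset that removes each library's GC trend. The slope seen with anastrozole and E2 (Spearman rho -0.71 and -0.69) is -0.07 and 0.27 with the offset, while most points stay below zero.

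Genes that act around the complex were read in 4 groups. None of the 7 inducible core subunits and activators passed in any of the 7 comparisons by edgeR's test. The number with an unadjusted p under 0.05 ran from 0 to 3 (3 with E2 against vehicle), and DESeq2 and limma-voom called 0. With E2 against vehicle, 4838 of 21132 genes tested and 4140 of 11037 genes of at least 3 log2 CPM had such a p. PSMB8, a beta subunit induced by interferon, was at 24.9 to 30.2 CPM over all libraries. Among 10 other bound or assembly factors, ADRM1, a ubiquitin receptor of the base, and UCHL5, the deubiquitinase that ADRM1 recruits, passed. Both did with E2, where 12% of all genes and 21.5% of genes of at least 3 log2 CPM passed, so 2 of 10 gives no excess over the latter. ADRM1 was at 95.6, 89.4 and 92.5 CPM in vehicle, 73, 76.8 and 81.2 CPM after anastrozole, 80.7, 82.1 and 80.4 CPM after E2, and 88, 81.1 and 85.4 CPM after both. Every treated library was below vehicle, with log2 fold changes of -0.27 (SE 0.06, adjusted p = 5.2e-04) with anastrozole and -0.19 (SE 0.05, adjusted p = 0.001) with E2. UCHL5 was at 93.7, 97.7 and 95.2 CPM in vehicle and 114, 104 and 109 CPM with E2, a rise of 0.19 (SE 0.04, adjusted p = 5.1e-04), and it fell by 0.17 from E2 to the combination (adjusted p = 0.0015). ADRM1 has 63.2% GC and UCHL5 34.4%, and with the GC offset neither passed against vehicle (ADRM1 -0.14 and -0.06, UCHL5 with E2 0.07). The ADRM1 fall with anastrozole was also lost with limma-voom (adjusted p = 0.1). In the interaction, the anastrozole effect was higher with E2 for ADRM1 (0.33, SE 0.07, adjusted p = 1.1e-04) and lower for UCHL5 (-0.27, SE 0.07, adjusted p = 0.0011). Both interaction calls held without any 1 library, with DESeq2 and with limma-voom, and were lost with the GC offset (0.09 and -0.07). The fall of UCHL5 from E2 to the combination was lost with limma-voom, without E2 a and with the GC offset (-0.05).

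Of 8 genes of transcriptional control, NFE2L1, the main activator of proteasome genes, was at 381 to 402 CPM over all libraries and passed in no comparison. NFE2L2, the regulator of antioxidant genes, was at 79.2, 79.5 and 83.5 CPM in vehicle, 92.6, 90.5 and 89 CPM after anastrozole, 96, 91.3 and 90.6 CPM after E2, and 85.5, 83.8 and 81.7 CPM after both. It rose with E2 by 0.20 (SE 0.05, adjusted p = 5.9e-04), fell by 0.14 from E2 to the combination (SE 0.04, adjusted p = 0.014), and its anastrozole effect was lower with E2 (-0.31, SE 0.07, adjusted p = 2.4e-04). The rise with E2 passed in every alternative tried, whereas the fall from E2 to the combination was lost in 5 of 9 (DESeq2 test, limma-voom, all 12 libraries, both GC offsets) and without E2 a or anastrozole plus E2 b or c, with adjusted p up to 0.52. MAFK, a small partner of both factors, was at -0.12 with E2 (SE 0.04, adjusted p = 0.039). That call passed in 1 of 6 fits without 1 library (the one without vehicle b) and in 3 of 9 other settings, was lost with the DESeq2 test (adjusted p = 0.14), limma-voom, all 12 libraries, the replicate block and both GC offsets, and its estimate was 0.01 with the GC offset. SYVN1, a ubiquitin ligase of the endoplasmic reticulum, rose by 0.12 from E2 to the combination (adjusted p = 0.024), a call lost in the same 5 of 9 alternatives as NFE2L2 and in 4 of 6 fits without 1 library (E2 a or c, or anastrozole plus E2 a or c), with adjusted p up to 0.88.

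Of 13 genes of ubiquitin supply and shuttling, 3 passed with E2. Among all genes 12% did, and among genes of at least 3 log2 CPM 21.5% did, a share close to that of the 13. UBB, a polyubiquitin gene, and UBA1, the main activating enzyme, were lower, and UBA6, another enzyme that activates ubiquitin, was higher. Another annotated gene lies opposite 49.4% of the exon bases of UBB, so the UBB counts are uncertain. UBB was at 548, 500 and 485 CPM in vehicle, 542, 516 and 473 CPM after anastrozole, 428, 458 and 476 CPM after E2, and 511, 507 and 517 CPM after both. All E2 libraries were below vehicle and the combination, while anastrozole c lay below E2 c, with -0.17 against vehicle (SE 0.03, adjusted p = 2.6e-06) and 0.17 for the combination against E2 (SE 0.03, adjusted p = 3.6e-06). The fall against vehicle was lost with limma-voom (adjusted p = 0.079), and the rise to the combination passed in every alternative tried. UBA1 fell by 0.12 with E2 (SE 0.03, adjusted p = 9.1e-04), and that call was kept in all 6 fits without 1 library and in 7 of 9 other settings. UBA6 was at 0.12 (SE 0.04, adjusted p = 0.045), and its call was lost in 8 of 9 other settings, the DESeq2 test and limma-voom among them, and without vehicle a or c or E2 a or c, with adjusted p up to 0.95. None of the 13 passed with anastrozole or with the combination against vehicle by edgeR's test, where 4 and 0 had an unadjusted p under 0.05 and DESeq2 and limma-voom called 0. Of 11037 genes of at least 3 log2 CPM, 2664 and 2452 had such a p in these comparisons. With the GC offset UBA1 and UBA6 no longer passed with E2, whereas UBB did. From E2 to the combination UBA1 was at 0.09 (adjusted p = 0.031) and UBA6 at -0.13 (adjusted p = 0.017), but these calls passed in 1 and 2 of 6 fits without 1 library, and neither held with the GC offset. In anastrozole against E2, UBB was at 0.18 (adjusted p = 6.8e-04), a call lost with filterByExpr, DESeq2 and limma-voom and without anastrozole a or E2 a, with adjusted p up to 0.26. In the interaction UBA1 was at 0.19 (adjusted p = 0.0041), lost with the GC offset alone or with the block, and UBB at 0.17 (adjusted p = 0.011), lost in 5 of 8 other settings and without vehicle a, anastrozole c or E2 a, with adjusted p up to 0.3.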

How the data were processed

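RNA-seq of T47D cells, 4 groups of 3 libraries. Per the labels and the study's methods, the authors aligned reads with TopHat 2.0.14 and Bowtie 2.2.6 to hg19 and counted them per gene with HTSeq; the annotation and strand setting are not given in the sources used here, so opposite-strand overlaps cannot be separated. The deposited values are raw counts, per the file headers. Summary lines for reads off genes (32.7 to 33.5% of the table's reads were on genes) were left out of library sizes. The labels name polyA RNA and a total RNA kit.

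Members, subunit classes and related gene lists were chosen with earlier results of these data known. Counts were scaled by TMM and tested with edgeR 4.0.16 (quasi-likelihood, robust) on the 6 libraries of each pair, the interaction on all 12, with Benjamini-Hochberg adjustment over 21132 genes with a count and a threshold of 0.05. Levels are CPM from TMM-scaled library sizes, and per kb over the canonical transcript's exons (GENCODE 44 on GRCh37), which also gave GC content. Of 25370 symbols 21539 matched directly and 1482 by an older symbol. Named genes were, by rule, PSMA7, PSMC3, every member past the threshold, the highest and lowest member of each class per kb, and related genes past the threshold; PSMB5, PSMB6, PSMA4 with E2, PSMD14, PSMF1, PSMG4, PSMD10, PSMB8, NFE2L1 and class extremes were singled out for their role or their values after these were seen. Alternatives were DESeq2 1.42.0 (size factors; test), limma-voom 3.58.1, library size alone, filterByExpr, all 12 libraries in a fit, a replicate block, a GC offset (lowess, span 0.5), both, and leaving out each library. The fits were tested on simulated data. 1 gene of the ubiquitin list is not reported here.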

Additional observations from a re-analysis of the deposited data

Results flagged for a closer look

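The anastrozole effect on 3 members differed with and without E2, by the interaction term of edgeR's quasi-likelihood fit over all 12 libraries. The difference on the log2 scale was 0.18 for PSMB4 (adjusted p = 0.013), 0.17 for PSMA7 (adjusted p = 0.037) and 0.17 for PSMD3 (adjusted p = 0.049). In that fit 10.9% of all genes passed. Among genes of at least 3 log2 CPM 19.9% passed and 10.9% were raised, so 3 of 39 members gives no excess. DESeq2 called PSMB4 alone, and limma-voom called 0 of the 3. The GC content of PSMB4, PSMA7 and PSMD3 is 52%, 51.9% and 58.5%. With the GC offset none of the 3 passed, with estimates of 0.14 for PSMB4 (adjusted p = 0.092), 0.13 for PSMA7 (adjusted p = 0.19) and 0.01 for PSMD3. PSMA5 (0.24, adjusted p = 0.01) and PSMB2 (0.22, adjusted p = 0.033) passed in their place, where 2.34% of all genes did.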

How the results depend on the processing

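The counts of members past the threshold were small, and those against vehicle moved with most settings. With the GC offset, without and with the block, 2.96% and 3.18% of all genes passed with anastrozole and 7.23% and 6.85% with E2. The shares were 6.02% and 7.63% for the combination against vehicle, and 2.34% and 2.83% for the interaction. Shares for the other settings are not printed here, so their counts cannot be read as an excess. For anastrozole against vehicle (1 member), limma-voom gave 0, all 12 libraries 4, the replicate block 2, the GC offset 3, and the offset with the block 4; leaving out 1 library gave 0 to 4. For E2 against vehicle (2), DESeq2 size factors gave 4, library size alone 5, filterByExpr 4, the DESeq2 test 1, limma-voom 1, all 12 libraries 1, the replicate block 1, the GC offset 4 with or without the block, and 1 library less 1 to 6. For the combination against vehicle (1), DESeq2 size factors gave 2, library size alone 0, all 12 libraries 0, the block 3, the GC offset 2, and both 3, with 0 to 2 on leaving out 1 library. For the combination against E2 (1), library size alone gave 2, and limma-voom, the GC offset and the offset with the block gave 0, with 0 to 2 on leaving out 1 library. For the combination against anastrozole (0), 1 library less gave 0 to 3. For the interaction (3), filterByExpr, the DESeq2 test and the replicate block gave 1, limma-voom gave 0, and 1 library less gave 0 to 5. With the GC offset, with or without the block, the members that passed were PSMA5 and PSMB2. Anastrozole against E2 stayed at 0 in every setting.

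The median over all 39 members against vehicle stayed below zero in every setting (-0.08 to -0.02 on leaving out 1 library). With the GC offset, with or without the block, the core alpha median with anastrozole moved from -0.01 to -0.07 (-0.05 to 0.02 without 1 library), and for the interaction from -0.01 to 0.08 (-0.07 to 0.03); the lid interaction moved from 0.00 to 0.04 (-0.04 to 0.02). Leaving out 1 library gave -0.11 to -0.01 for core beta with the combination, 0.02 to 0.08 for the ATPase interaction and -0.07 to -0.01 for the lid with anastrozole. MAFK with E2 reversed to 0.01 with the GC offset, with or without the block. The chaperone medians also moved with that offset, from -0.04 to -0.10 with anastrozole and from 0.02 to 0.11 for the interaction. Whether the replicate letters pair the libraries is not known. Same-letter deviations correlated by -0.2 to 0.18, which cannot show whether libraries of the same letter shared a culture or day. Calls over all genes with anastrozole were 296 raised and 480 lowered, and 322 and 304 with the GC offset. The cause of these moves was not tested. Members' log2 fold changes had a median SE of 0.04 to 0.05 between groups and 0.07 for the interaction, which limits what can be seen with 3 libraries a group.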
